A study of Mus musculus with 24 samples.

Results

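The 9 genes examined here mark the projection neurons of the striatum and were followed in RNA from the medial prefrontal cortex as a gauge of how much neighbouring striatum each dissected piece held: Adora2a, Ppp1r1b, Rgs9, Pde10a, Tac1, Rarb, Penk, Gpr6 and Syndig1l. They were taken by symbol from the table of read counts, and 9 of the 9 were found among its 56750 entries, each as 1 entry. All 9 were among the 20354 genes that passed the filter on low counts. Their levels differed widely from library to library, by 4.21-fold for Ppp1r1b to 30.7-fold for Pde10a, and they rose and fell together. No member passed the test in any of 10 comparisons between groups.

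The study held 24 bulk RNA-seq libraries in 6 groups of 4, all labelled with the genotype 5xFAD. In this strain the Thy1 promoter, active in neurons, drives a mutated human APP transgene of familial Alzheimer's disease. SI marks socially isolated mice and EE an enriched environment, the groups being GH_Con and SI_Con (no treatment), GH_EE and SI_EE, and GH_WT and SI_WT. The labels do not say what GH stands for. They list WT as a treatment of mice that are also labelled 5xFAD, so GH_WT and SI_WT are called the WT arm here and are not taken as wild-type controls. No age or sex is given, and the libraries share 1 batch date. The labels do not say if the 4 libraries of a group are 4 mice, and p-values here rest on the spread among libraries, which may be technical.

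Projection neurons make up most neurons of the striatum and use GABA. Those of the direct pathway carry the D1 dopamine receptor and make substance P from Tac1. Those of the indirect pathway carry the D2 dopamine receptor and an adenosine receptor and make enkephalin from Penk. Both kinds turn dopamine signals into changes in cyclic AMP, through proteins that are far scarcer in cortex. The striatum lies next to the frontal cortex, with white matter between them. Several of the 9 genes are also active in some cortical cells: Penk and Tac1 in interneurons and Ppp1r1b in deep layers.

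RefSeq promoter windows, the 250 bases before a gene start in build GRCm38.p6, were matched for 5 of the 9 members, as 6 windows (Tac1, Gpr6, Rgs9, Rarb and 2 for Pde10a). Adora2a, Ppp1r1b, Penk and Syndig1l were not matched. The motifs searched on both strands were TGACGTCA (the cAMP response element), TGCGTCA (its form in the enkephalin gene), TATAAA (the TATA box) and GGGCGG (the GC box). Retinoic acid hexamers were searched as AGGTCA, with the variants GGTTCA or, as the alternative form, AGTTCA. The windows of Gpr6 and Rgs9 are shown whole because these genes followed each other closely over the libraries, with an r of 0.98. The sites in Rarb and Tac1 are shown with 5 bases on each side because they belong to the retinoic acid and cAMP signalling that these neurons use. All are printed 5′ to 3′ in the direction of the gene, with the matched motifs in capitals.
Gpr6: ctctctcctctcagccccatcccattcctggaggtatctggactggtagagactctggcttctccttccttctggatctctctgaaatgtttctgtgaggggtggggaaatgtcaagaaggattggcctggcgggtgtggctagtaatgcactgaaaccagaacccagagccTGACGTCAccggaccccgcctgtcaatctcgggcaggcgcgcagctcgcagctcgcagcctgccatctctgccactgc
Rgs9: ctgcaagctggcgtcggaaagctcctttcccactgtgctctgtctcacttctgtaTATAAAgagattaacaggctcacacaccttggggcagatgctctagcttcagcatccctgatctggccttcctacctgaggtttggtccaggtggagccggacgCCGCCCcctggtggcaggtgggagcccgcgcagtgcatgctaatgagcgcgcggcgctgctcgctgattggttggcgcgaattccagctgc
Rarb site: ggaagGGTTCAccgaaAGTTCActcgc
Tac1 site: aaaatTGCGTCAtttcg
The Gpr6 window is chr10:41072291-41072540 on the minus strand. It holds TGACGTCA from base −78 to base −71 counted back from the gene start, a motif that reads the same on both strands and was in 1.55% of 32851 windows of the same length. The Rgs9 window is chr11:109298182-109298431 on the minus strand, with TATAAA at −195 to −190 (in 12.4% of windows) and a GC box on the opposite strand, CCGCCC, at −91 to −86 (in 32.7%). The 2 windows share none of these motifs. The Rarb site is chr14:16575508-16575534 on the minus strand, inside the span of the gene (chr14:16430839-16819156 in GENCODE). Its hexamers form a direct repeat 5 bases apart at −53 to −37, which 18 of the 32851 windows held (0.0548%), while a single hexamer was in 30.7%. Rarb is a classic target of retinoic acid through an element of this form. The Tac1 site is chr6:7554857-7554873 on the plus strand, with TGCGTCA at −199 to −193 (in 1.75% of windows). That count is from the RefSeq start. The GENCODE start of Tac1, at 7554879, lies inside its window (7554811-7555060) and close to the site. The 2 Pde10a windows, which begin at chr17:8801495 and chr17:8849735, also lie inside the span of their gene (8525372-8986648 in GENCODE). Of the 6 windows, 3 held the GC box and 1 held each other motif. A match is a run of letters and does not show that a factor binds there.

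Set against the length of their exons, the members fell into a wide range of levels. Values are CPM, read counts scaled to the total of the library after TMM scaling of that total. Penk had the highest mean over the 24 libraries, 108 CPM per kilobase of exon, followed by Ppp1r1b at 102 CPM per kilobase. The next were Pde10a at 16.7, Adora2a at 13.5, Syndig1l at 12.4, Rgs9 at 12 and Tac1 at 9.49 CPM per kilobase. Gpr6 at 6.07 and Rarb at 3.98 CPM per kilobase were lowest. The precursor of enkephalin and the phosphatase inhibitor DARPP-32 (Ppp1r1b) thus stood above the other 7. Penk, Ppp1r1b and Tac1 are also made in cortex, and the part of cortical cells in these levels was not tested.

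Adora2a encodes the adenosine receptor that opposes the D2 receptor in indirect pathway neurons. Its CPM was 50.2, 61.4, 59.1 and 54.5 in GH_Con and 25.7, 20.5, 29.6 and 43.2 in SI_Con. It was 38.2, 43.2, 70.1 and 65.3 in GH_EE and 3.2, 48.7, 38.8 and 53.6 in SI_EE. In the WT arm it was 5.22, 17.5, 66.1 and 28.4 in GH_WT and 58.0, 27.6, 51.4 and 34.7 in SI_WT. SI_EE 1 and GH_WT 1 were far below all others, and GH_WT held both 1 of the lowest libraries and 1 of the highest. Every SI_Con library was below every GH_Con library, while the other pairs of groups compared overlapped. The order of the group means was GH_Con, GH_EE, SI_WT, SI_EE, SI_Con and GH_WT, from 56.3 ± 4.99 to 29.3 ± 26.3 CPM (SD, n = 4).

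Gpr6 is an orphan receptor of indirect pathway neurons that raises cyclic AMP without a ligand, and it was the least abundant member in reads, with 28 reads in its lowest library. Its CPM in SI_EE was 0.706, 18.1, 10.5 and 13.9 and in GH_WT was 1.61, 4.4, 16.0 and 7.31. In the other 16 libraries it lay between 5.78 (SI_Con 1) and 19.3 (GH_EE 4). The same 2 libraries as for Adora2a were at the bottom, and the Gpr6 to Adora2a ratio of CPM stayed within 2.51-fold over all 24 libraries (0.191 to 0.48).

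Penk, the enkephalin precursor, measured 183, 231, 191 and 193 CPM in GH_Con and 108, 102, 239 and 201 CPM in SI_Con. It measured 157, 179, 236 and 269 CPM in GH_EE and 80.2, 246, 159 and 245 CPM in SI_EE. In GH_WT it measured 39.5, 79.7, 218 and 110 CPM and in SI_WT 237, 121, 228 and 183 CPM. GH_WT 1 was lowest, and SI_EE 1 kept 43.0% of the median over libraries, against 7.41% for Adora2a. The ratio of Penk to Adora2a was accordingly 25.1 in SI_EE 1, while the median library had 4.17. Group means ran from 210 ± 51.1 CPM in GH_EE to 112 ± 76.6 CPM in GH_WT (SD, n = 4).

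Tac1, which gives substance P and neurokinin A in direct pathway neurons, lay between 11.5 CPM (SI_EE 1) and 56.9 CPM (GH_EE 4). In GH_WT its CPM was 11.8, 15.9, 42.9 and 16.2, so that 3 of the 4 libraries were close together and GH_WT 3 stood above them. Its ratio to Penk, a direct over an indirect pathway peptide, had a median of 0.177 and stayed between 0.144 (SI_EE 1) and 0.298 (GH_WT 1). The ratio of the dopamine receptors Drd1 and Drd2, which are not members, had a median of 1.41 and also had its extremes in those libraries, 0.468 in SI_EE 1 and 3.07 in GH_WT 1. In the other 22 libraries it lay between 0.947 and 2.05. The 2 libraries with the lowest members thus differed in opposite directions in this ratio.

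Pde10a, a phosphodiesterase that breaks down cyclic AMP and cyclic GMP in both kinds of projection neuron, varied most. Its CPM was 283, 271, 195 and 273 in GH_Con and 168, 109, 96.7 and 176 in SI_Con. It was 177, 106, 507 and 278 in GH_EE and 16.5, 336, 138 and 496 in SI_EE. In GH_WT it was 39.7, 164, 396 and 94.1 and in SI_WT 231, 215, 208 and 167. All SI_Con libraries were below all GH_Con libraries, and GH_EE 3 and SI_EE 4 stood above the rest. Pde10a had the longest exon sequence of the members (12.85 kb).

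Rgs9, which shortens dopamine and opioid receptor signals by speeding the G protein's return to rest, measured 91.6, 104, 94.4 and 87.3 CPM in GH_Con. It measured 46.7, 45.3, 75.1 and 77.6 CPM in SI_Con, each below every GH_Con library. In SI_EE it measured 6.76, 85.4, 80.7 and 110 CPM and in GH_WT 16.3, 41.4, 119 and 54.9 CPM. Over all libraries it spanned 18.5-fold, from SI_EE 1 to GH_EE 4 (125 CPM). Ppp1r1b, whose product inhibits protein phosphatase 1 once protein kinase A has phosphorylated it, spanned only 4.21-fold, from 132 CPM in GH_WT 1 to 554 CPM in GH_EE 4. In SI_EE 1 it kept 55.6% of its median and in GH_WT 1 it kept 44.8%, the largest shares of any member in those libraries.

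Rarb, a nuclear receptor for retinoic acid, lay between 6.23 CPM (GH_WT 1) and 31.7 CPM (GH_EE 4), with 9.91 CPM in SI_EE 1. In GH_Con its 4 libraries lay between 21.8 and 24.7 CPM and in GH_WT between 6.23 and 26.9 CPM. Syndig1l, a membrane protein of striatal neurons also called capucin, was at 4.34, 20.3, 72.4 and 25.2 CPM in GH_WT, which held its lowest and its highest library. In SI_EE 1, the lowest library for 5 of the 9 members, Syndig1l was at 16.9 CPM, above the 16.0 CPM of SI_Con 2. GH_WT 1 was lowest for the other 4 members, and among the lowest 2 libraries for all 9.

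**Figure D1:**
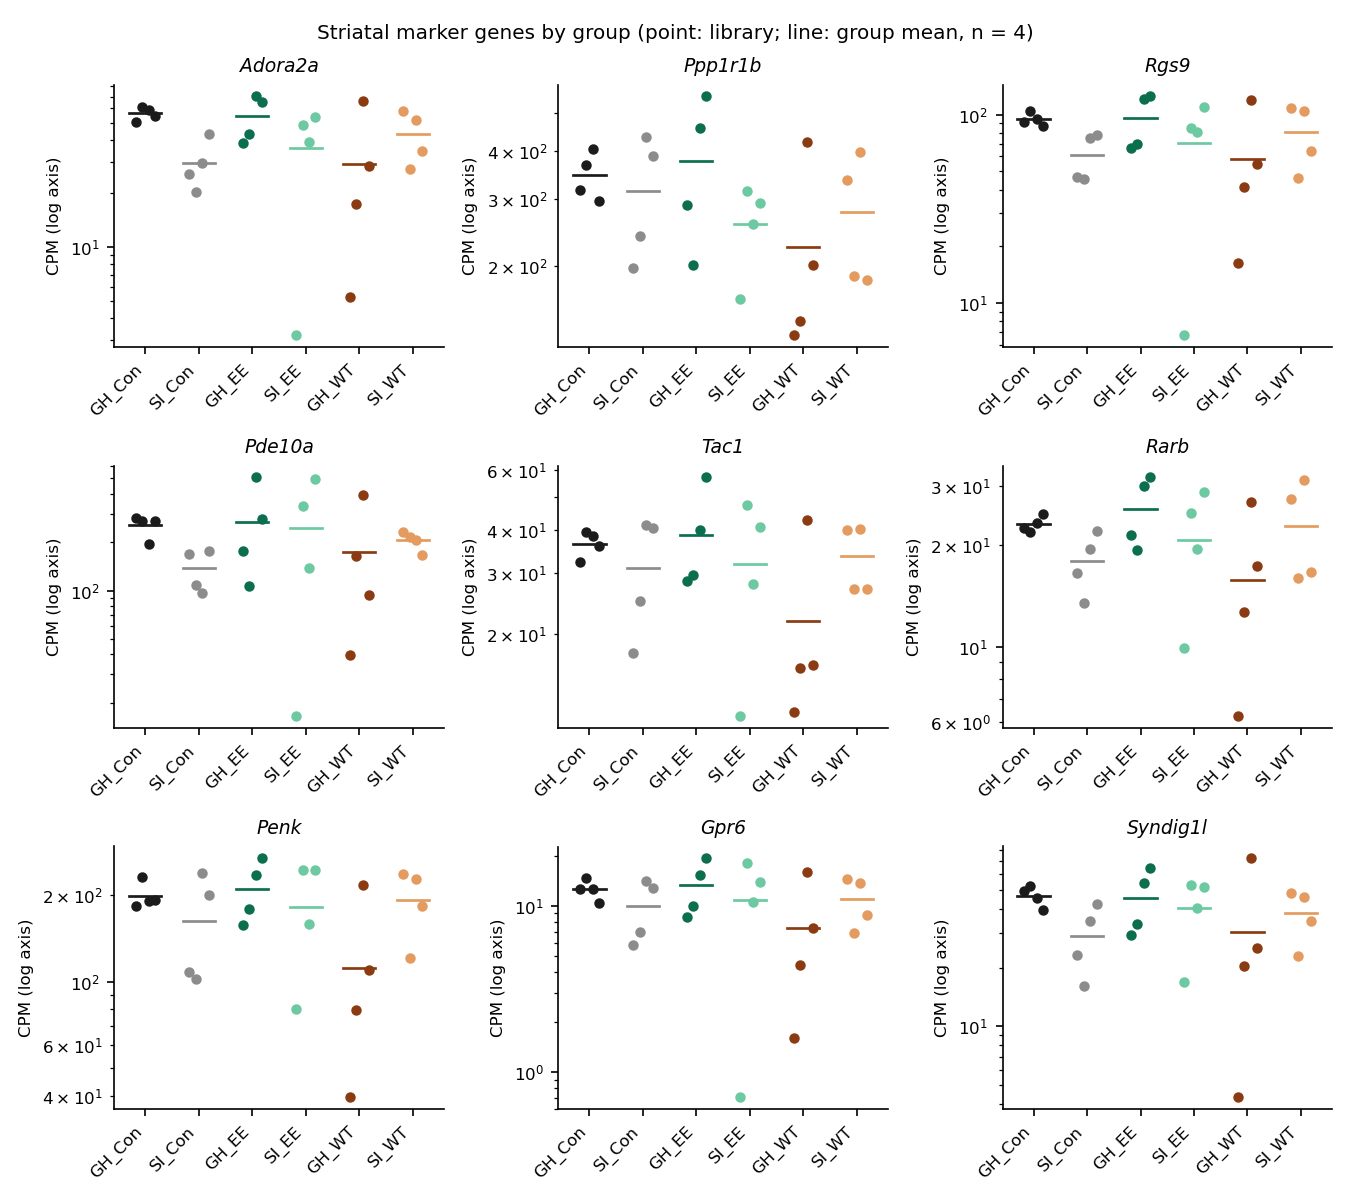
CPM (log axis) of each of the 9 striatal marker genes in the 6 groups, each point 1 library and each line the group mean (n = 4). The GH_Con points lie close together in most panels, with Pde10a in GH_Con 3 (195 CPM) apart from the rest, while GH_WT and SI_EE hold points far below the rest, such as Adora2a at 5.22 and 3.2 CPM.

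The spread between libraries of 1 group was the main feature of these genes. Over 24 libraries the members' SD of log2 CPM had a median of 0.86 (0.55 for Rarb to 1.10 for Pde10a), where all 20354 genes tested had a median of 0.36. Without SI_EE 1 and GH_WT 1 the medians were 0.51 and 0.32. Differences between group means held 25.1% of the members' variance (median), and 23.2% of that of all genes. Within groups, the members' median SD of log2 CPM was 0.15 in GH_Con, below the 0.23 of all genes. It was above that of all genes in the other 5 groups: 0.54 against 0.33 in SI_Con, 0.49 against 0.22 in GH_EE, 0.91 against 0.38 in SI_EE, 1.18 against 0.23 in GH_WT and 0.49 against 0.32 in SI_WT.

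When the 24 libraries were put in order by the mean of the 9 centred log2 CPM values, SI_EE 1 was lowest at −2.09 and GH_WT 1 next at −2.04. GH_WT 2 followed at −0.78 and SI_Con 2 at −0.57. At the other end were GH_EE 4 at 0.88, GH_EE 3 at 0.80 and GH_WT 3 at 0.76. All 4 GH_Con libraries lay between 0.34 and 0.55. Members of the 2 lowest libraries did not drop by the same factor. In GH_WT 1 they kept 10.9% (Syndig1l) to 44.8% (Ppp1r1b) of their medians. In SI_EE 1 they kept 6.09% (Gpr6), 7.41% (Adora2a), 8.54% (Rgs9) and 8.89% (Pde10a), while the other 5 kept 33.8% (Tac1) to 55.6% (Ppp1r1b).

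**Figure D2:**
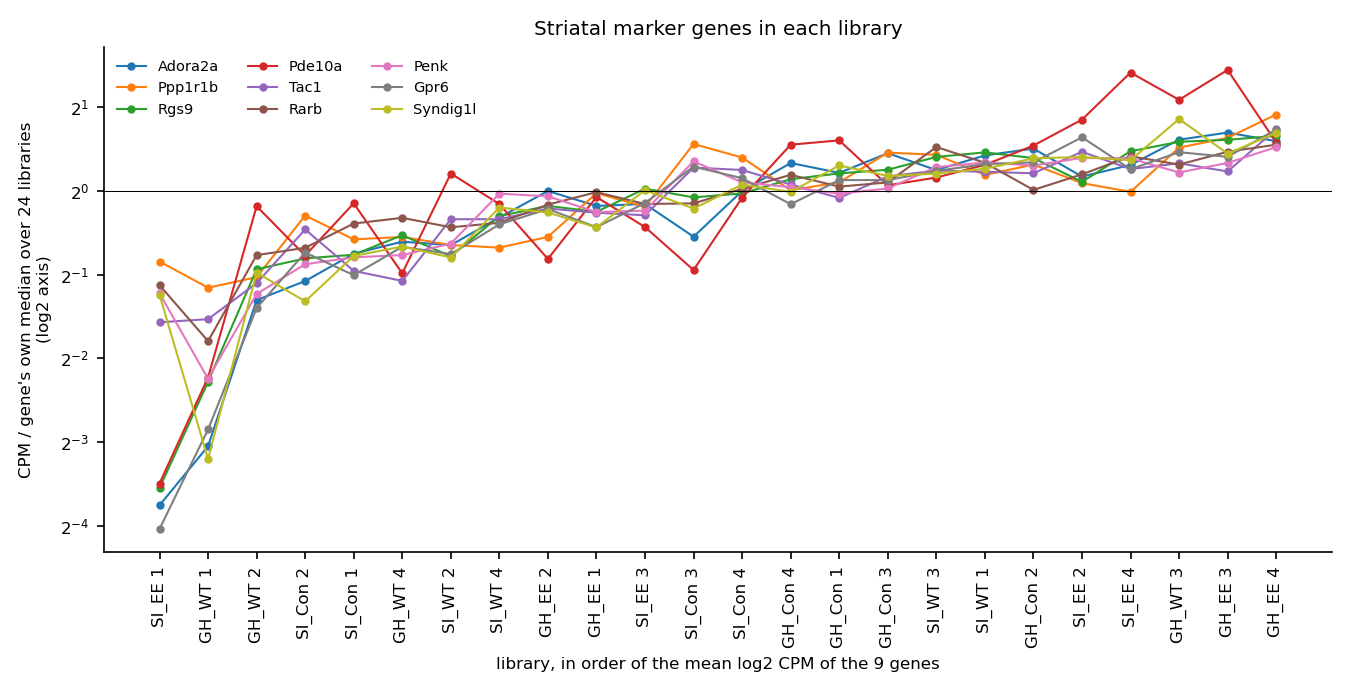
CPM of each member divided by its own median over the 24 libraries (log2 axis), with libraries ordered from the lowest to the highest mean log2 CPM of the 9 genes. The lines run together over most libraries and part in SI_EE 1, where Gpr6 is at 6.09% and Ppp1r1b at 55.6% of the median.

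The 9 genes were correlated in all 36 pairs over the 24 libraries. Pearson's r of log2 CPM ran from 0.61 (Ppp1r1b with Pde10a) to 0.98 (Adora2a with Rgs9), with a median of 0.87. Spearman's rho ran from 0.60 to 0.96 for the same pairs. The largest permutation p of the 36 pairs was 0.00086 for r and 0.00215 for rho (two-sided), unchanged by Benjamini-Hochberg adjustment over the pairs, and the smallest was 1e-05 (adjusted 1.33e-05), the least that 100000 permutations can give. Without the 2 libraries farthest from the median of the first gene listed in each pair, r ran from 0.54 to 0.95. Without SI_EE 1 and GH_WT 1 in every pair it ran from 0.45 to 0.96 with a median of 0.87, so the median did not rest on those libraries. Single pairs did change. Each pair with Pde10a fell, from 0.85 to 0.55 with Gpr6 and from 0.76 to 0.70 with Syndig1l, while Rgs9 with Syndig1l rose from 0.83 to 0.95. Computed on deviations from group means over the 24 libraries, r ran from 0.59 to 0.98 with a median of 0.88. Since the genes were chosen as markers of 1 tissue with earlier results of these data known, these values describe the set.

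**Figure D3:**
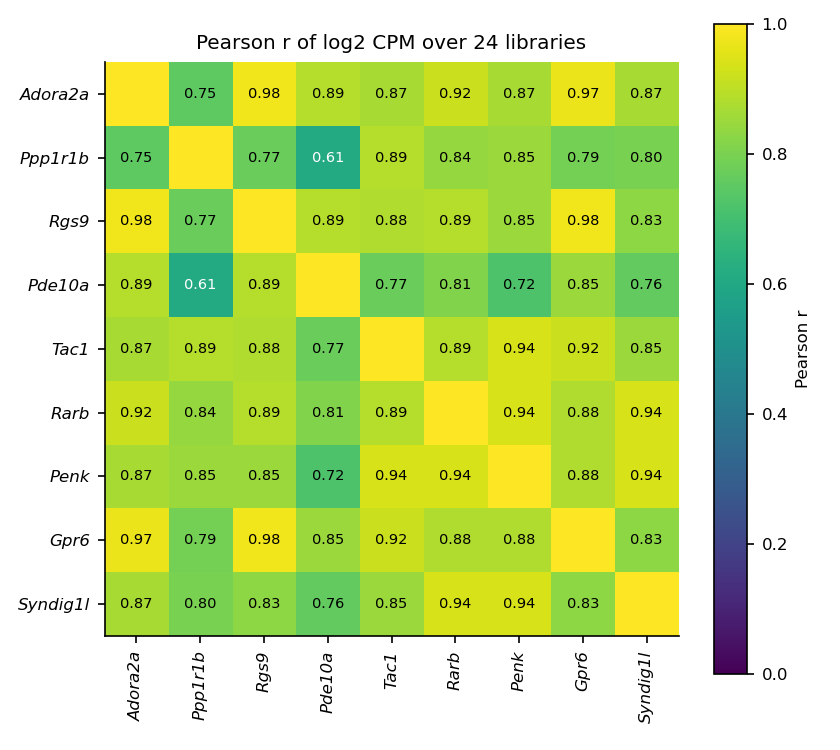
Pearson's r of log2 CPM over 24 libraries for each pair of the 9 genes (colour and number). Values run from 0.61 to 0.98, with Ppp1r1b and Pde10a lowest with each other.

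Pde10a went its own way most often. Once the mean of the 9 genes was subtracted, its deviations had an SD of 0.54 on the log2 scale, and 0.48 without SI_EE 1 and GH_WT 1. For the other 8 members that SD was 0.28 to 0.43 over all libraries and 0.11 (Rgs9) to 0.26 (Ppp1r1b) without those 2. Pde10a was furthest above the others in SI_EE 4, by 0.87. In SI_EE 1 the members parted into Gpr6 (−1.50), Adora2a (−1.32), Pde10a (−1.30) and Rgs9 (−1.20) below their mean and Tac1 (0.72), Penk (1.08), Rarb (1.10), Syndig1l (1.10) and Ppp1r1b (1.32) above it.

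Other genes followed the same order of libraries. Of 13611 named genes with a mean CPM of at least 1, those with the highest Pearson r with the members' mean over 24 libraries included Drd2 (0.98), Slc35d3, Rxrg, Cd4 and Sh3rf2 (0.96 each), Clspn and Lrrc10b (0.95 each), and Rasd2 and Adcy5 (0.94 each). Of these, 5 are on the list of other striatal genes: Drd2, Rxrg, Lrrc10b, Rasd2 and Adcy5. Without SI_EE 1 and GH_WT 1, Drd2 had an r of 0.98 and Rasd2 0.97. At the other end were Pqlc2 and Smyd2 (−0.75 each), Parp8 and Hopx (−0.74 each) and Nab1 (−0.73). Parp8 weakened to −0.36 and Nab1 to −0.41 without those libraries. Over all genes with a mean CPM of at least 1 the median r was −0.02, and 0.405% had an r above 0.8. These points share library, depth and dissection, and genes are not independent replicates.

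The list of other striatal projection neuron genes gave the wider picture. It has 21 genes, of which 20 were found and tested, and Gpr52 was not analysed here. Of the 20, 16 had an r above 0.8 with the members' mean, the median being 0.90. The dopamine receptor genes Drd1 and Drd2 had 0.93 and 0.98. The exceptions at the low end were Ebf1 (−0.12) and Strip2 (0.27), which had their highest values in SI_EE 1, at 39 and 78.1 CPM against medians of 6.2 and 46.2 CPM. The summed CPM of the list was 611 in SI_EE 1, 1040 in GH_WT 1 and 1350 to 3210 in the other 22 libraries.

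Rgs9 was set against 6 single genes of other kinds. Its r over 24 libraries was 0.98 with Drd1, 0.94 with Drd2 and 0.92 with Chat, the acetylcholine enzyme of cholinergic neurons (rho 0.93, 0.97 and 0.81). Each of these 3 had a permutation p of 1e-05, adjusted to 2e-05 over the 6. With Slc17a7, the glutamate transporter of cortical pyramidal neurons, r was 0.32 (rho 0.04, adjusted p = 0.204 and 0.852, permutation). With Gad1, an enzyme of GABA synthesis, r was 0.06 (rho 0.22, adjusted p = 0.797 and 0.449, permutation). With Mbp of myelin it was 0.16 (rho −0.10, adjusted p = 0.553 and 0.764, permutation). Without GH_WT 1 and SI_EE 1, the farthest from the median of Rgs9, r was 0.93, 0.97 and 0.69 for the first 3. For the last 3 it was −0.03, 0.21 and −0.11. Chat was low throughout, from 0 CPM in SI_EE 1 to 6.04 CPM in GH_EE 4. Rgs9 thus followed Drd1, Drd2 and Chat, and its correlations with the single genes Slc17a7, Gad1 and Mbp did not pass the test. The lists that hold these 6 genes were chosen with earlier results of these data known, so the values describe them.

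Lists by pathway and by cell type were read the same way. The 4 indirect pathway genes (3 of them members) had a median r of 0.97 with the members' mean, and the 5 direct pathway genes (1 a member) a median of 0.84. Without SI_EE 1 and GH_WT 1 these medians were 0.95 and 0.42. Members help form the mean they are set against, so the 2 medians cannot be compared with each other. Of the genes outside the 9, Drd2 then had 0.98 and Drd1 0.93. Pdyn had 0.36, Ebf1 0.40 and Isl1, with a mean of only 1.64 CPM, 0.42. Of 16 cAMP and dopamine signalling genes that were measured, 5 of them members, 12 had an r above 0.8. Of 10 retinoic acid receptors and partners, only Rarb and Rxrg did, and the median was 0.04. Of 9 enkephalin and tachykinin peptides and receptors, 2 of them members, 3 did. The 4 cholinergic neuron genes had r between 0.72 (Slc18a3) and 0.93 (Lhx8), and their summed CPM was 0.857 in SI_EE 1 and 22.6 in GH_EE 4. Transcription factors that striatal neurons share with cortex were divided, with Meis2 at 0.94 and Foxp1 at 0.24. The 8 cortical pyramidal genes had a median r of 0.42, from −0.56 (Neurod2) to 0.56 (Camk2a), and 0.06 without SI_EE 1 and GH_WT 1. The 10 cortical interneuron genes had a median of 0.30, from −0.62 (Pvalb) to 0.58 (Gad2), and 0.03 without those libraries. For the 5 microglia genes it was 0.28, and −0.06 without them. The medians of these 3 lists were thus near 0 once the 2 libraries with the lowest members were left out.

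The 2 libraries with the lowest members differed in their other cell markers. In SI_EE 1 the summed CPM of 8 cerebellar genes was 2920, against 16.2 to 37.6 in the other 23 libraries, with Gabra6 of granule cells at 342 CPM and Pcp2 of Purkinje cells at 242 CPM. The sum of 8 cortical pyramidal genes was 1690 there, against a median of 5560, and that of 9 thalamus and habenula genes was 522, against a median of 57.2. Calb2 alone gave 369 CPM of the 522, and Gpr151 of the habenula was at 0.58 CPM in SI_EE 1. In GH_WT 1 the cerebellar, pyramidal, and thalamus and habenula sums were 31.5, 5740 and 66.7. The cerebellar and pyramidal sums were thus inside the range of the other libraries in GH_WT 1. GH_WT 2 and GH_WT 4, which ranked 3 and 6 from the bottom in the members' mean, had thalamus and habenula sums of 283 and 268, with Gpr151 of the habenula at 10.2 and 6.45 CPM. The choroid plexus sum reached 1090 in SI_Con 4, with Ttr at 1010 CPM, and 4.6 to 569 in the others. The part of these tissues in the members' levels was not tested. In bulk RNA, fewer cells of a type and less RNA per cell cannot be told apart.

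**Figure D4:**
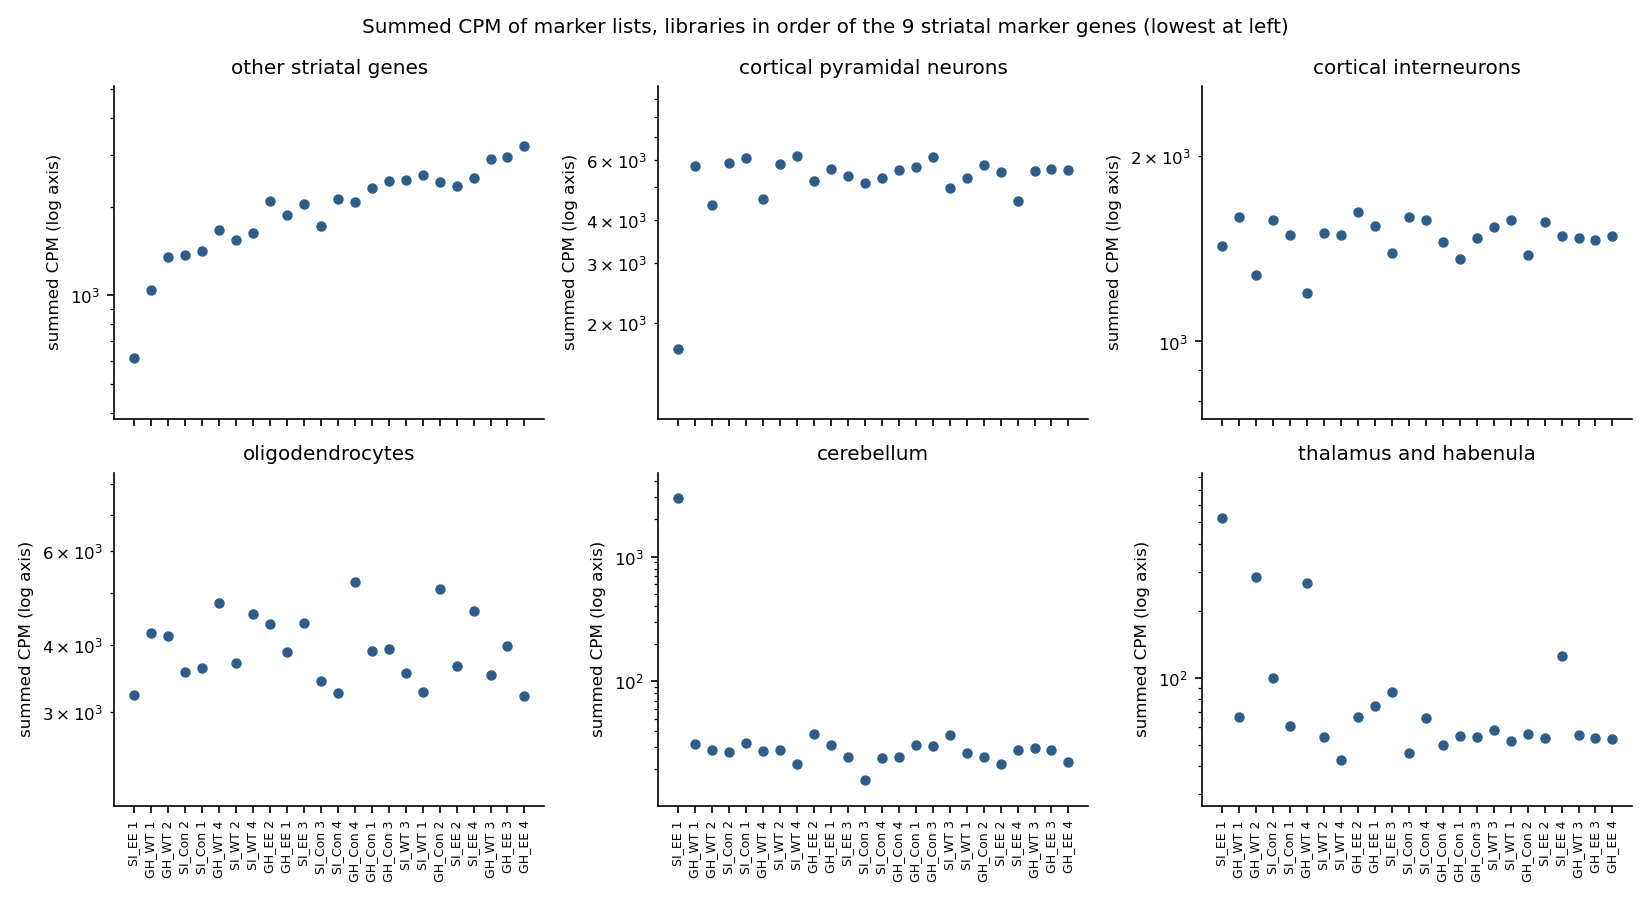
Summed CPM (log axes) of 6 marker lists in each of 24 libraries, ordered from the lowest to the highest mean of the 9 striatal marker genes. The other striatal genes climb from 611 to 3210 CPM along this order, while the cerebellar sum stands out in SI_EE 1 only (2920 CPM). The thalamus and habenula sum stands out in GH_WT 2, in GH_WT 4 and in SI_EE 1, where Calb2 gives 369 CPM of 522.

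Total counts per library ran from 33683587 to 51274917, so even the lowest member in the lowest library rested on 28 reads. The oligodendrocyte sum, a sign of white matter in the piece, lay between 3210 and 5240 CPM and its genes had a median r of −0.03 with the members' mean.

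Isolation without treatment was the first comparison of groups. All 9 members were lower in SI_Con than in GH_Con, by a median log2 fold change of −0.36, where the median over all genes was 0.00. None passed the test (0 of 9, and 0% of 20354 genes, adjusted p under 0.05 in edgeR). The groups did not overlap for 3 of the 9, Adora2a, Rgs9 and Pde10a, and 2.61% of all genes had every SI_Con library below every GH_Con library. Adora2a was at 29.7 ± 9.69 CPM in SI_Con and 56.3 ± 4.99 CPM in GH_Con (SD, n = 4), a log2 fold change of −0.92 (SE 0.60, adjusted p = 0.853 in edgeR). Pde10a was at 137 ± 40.4 and 255 ± 40.9 CPM, a log2 fold change of −0.89 (SE 0.68, adjusted p = 0.877 in edgeR). Rgs9 was at 61.2 ± 17.6 and 94.4 ± 7.25 CPM, a log2 fold change of −0.63 (SE 0.56, adjusted p = 0.912 in edgeR). Syndig1l had −0.69, Rarb −0.36, Gpr6 −0.34, Penk −0.30, Tac1 −0.23 and Ppp1r1b −0.13. SEs come from a spread shared by all 6 groups. In a fit of these 2 groups alone, the unadjusted p in edgeR was 0.00107 for Adora2a, 0.00187 for Pde10a and 0.00747 for Rgs9, and the adjusted p was 0.622, 0.622 and 0.701. Of the 20 other striatal genes, 19 were lower in SI_Con (median −0.46), and 0 of the 20 passed. These genes had a median r of 0.90 with the members' mean over libraries. Their signs and those of the members are thus not independent observations. The oligodendrocyte sum was also lower in SI_Con, at 3260 to 3620 CPM against 3900 to 5240 CPM in GH_Con, and so was the sum of 5 astrocyte genes, at 668 to 902 against 944 to 1410 CPM. All 5 astrocyte genes (median log2 fold change −0.41) and all 5 microglia genes (median −0.38) were lower in SI_Con, and none of these passed. The cholinergic neuron sum was 2.43 to 8.45 CPM in SI_Con and 9.87 to 12.9 CPM in GH_Con. The part of these cells in the members' differences was not tested. A further fit left out GH_Con 2, SI_Con 2, SI_Con 3 and SI_WT 4, libraries in which long genes are lower. There the log2 fold change was −0.66 for Adora2a, −0.53 for Pde10a and −0.44 for Syndig1l. The part of gene length in these values was not tested. Without SI_Con 3 the members' median was −0.56, and without SI_Con 1 Ppp1r1b was at 0.05.

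Within EE, all 9 members were again lower in the isolated mice (median −0.30), and none passed (0 of 9, against 0.00491% of genes, or 1 gene, in edgeR). Without SI_EE 1 that median was −0.0044. All 7 cerebellar genes tested were higher in SI_EE than in GH_EE (median 5.45), a tissue whose transcripts stood out in SI_EE 1, and its part in these differences was not tested. Every member's groups overlapped. Over 16 alternative settings the sign turned 4 times for Pde10a, from −0.71 without SI_EE 4 to 0.39 without GH_EE 3. It turned 3 times for Syndig1l and 2 times each for Penk and Gpr6, and in none of the 16 for the other 5 members. Within the WT arm the order was the opposite. All 9 members were higher in SI_WT than in GH_WT (median 0.53), and none passed (0 of 9, against 0% of genes). Penk was at 192 ± 52.9 CPM in SI_WT and 112 ± 76.6 CPM in GH_WT (SD, n = 4), a log2 fold change of 0.78 (95% interval −0.07 to 1.63, adjusted p = 0.913 in edgeR). The other members had 0.24 (Pde10a) to 0.63 (Tac1). Leaving out GH_WT 1 brought the members' median to 0.21, with Pde10a at −0.08 and Syndig1l at −0.04. Leaving out GH_WT 3 brought it to 1.20. All 9 thalamus and habenula genes (median −2.90) and all 6 choroid plexus genes (median −2.98) were lower in SI_WT, and none of them passed. Without SI_EE 1, GH_WT 2 and GH_WT 4, the libraries with the highest thalamus and habenula sums, the members' median was 0.27. Ppp1r1b was then at 0.0024 (from 0.30) and Tac1 at 0.30. That fit kept SI_Con 4 and SI_EE 3, whose choroid plexus sums were 1090 and 569 CPM. The part of these tissues in the differences was not tested.

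EE gave small differences in GH mice: 7 members were higher in GH_EE than in GH_Con and 2 lower, with a median of 0.08, and none passed (0 of 9, against 0.00491% of genes). In isolated mice 8 were higher in SI_EE than in SI_Con and Ppp1r1b was lower, with a median of 0.21, and none passed (0 of 9, against 0% of genes). The median in GH mice was −0.12 without GH_EE 4. In isolated mice it was 0.52 without SI_EE 1 and −0.0094 without SI_EE 4.

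In the WT arm of GH mice all 9 members were lower than in GH_Con, by a median of −0.71 on the log2 scale, and none passed (0 of 9, against 0% of genes). Adora2a was at 29.3 ± 26.3 CPM in GH_WT and 56.3 ± 4.99 CPM in GH_Con (SD, n = 4), a log2 fold change of −0.94 (95% interval −2.21 to 0.33). Penk had −0.83 (95% interval −1.69 to 0.02) and Tac1 −0.75 (95% interval −1.58 to 0.07). Their unadjusted p was 0.134, 0.0523 and 0.0695, and each adjusted p was 1.0 (edgeR). The other members had −0.79 (Gpr6) to −0.54 (Rarb). GH_WT 3 went against the rest of its group: without it the members' median was −1.36, and without GH_WT 1 it was −0.44. All 9 thalamus and habenula genes were higher in GH_WT than in GH_Con (median 2.38), and none of them passed. Without SI_EE 1, GH_WT 2 and GH_WT 4 the members' median was −0.48, with Ppp1r1b at −0.32 (from −0.62), Tac1 at −0.42 and Pde10a at −0.23 (from −0.56). The part of that tissue in the differences was not tested. Of the other striatal genes, 19 of 20 were lower in GH_WT (median −0.44), and 0 passed. Here too their signs are not independent of those of the members. In isolated mice 8 of 9 members were higher in SI_WT than in SI_Con (median 0.35), with Ppp1r1b lower, and none passed (0 of 9, against 0% of genes).

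The difference between housings was tested directly. For the WT arm it was positive for all 9 members, with a median of 1.0 (Ppp1r1b 0.44 to Adora2a 1.47) on the log2 scale. None passed (0 of 9, against 0% of genes), and the interval of Adora2a was −0.32 to 3.26. That median was 0.66 without GH_WT 1 and 1.65 without GH_WT 3. For EE it was positive for 7 members, with a median of 0.09, and none passed (0 of 9, against 0% of genes). A test of any difference among the 6 groups called 0 of 9 members, against 0.0491% of genes (10 genes), and the smallest member p was 0.323 (Penk, adjusted p = 0.792 in edgeR). Comparisons that use the same control libraries, GH_Con or SI_Con, are not independent of each other. No member reached an unadjusted p under 0.05 in these 10 comparisons, where 3.42% to 12.6% of all genes did. The intervals leave room for 2-fold differences: that of Adora2a in isolation without treatment was −2.19 to 0.35.

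**Figure D5:**
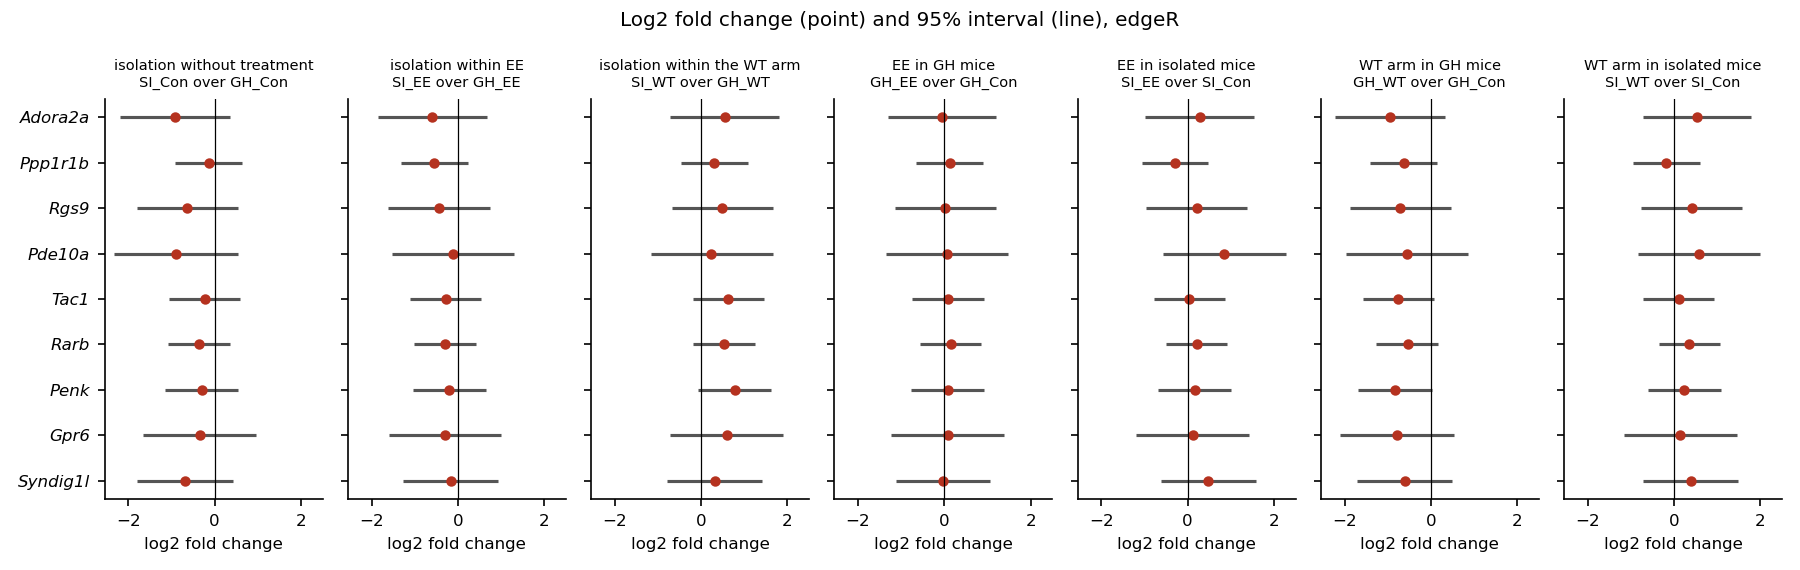
Log2 fold change (points) of the 9 genes with 95% intervals (lines) from edgeR in 7 comparisons of 2 groups of 4 libraries. Every interval crosses 0, with all 9 points left of 0 for isolation without treatment, isolation within EE and the WT arm in GH mice.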

How the data were processed

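Bulk RNA sequencing of medial prefrontal cortex gave 24 libraries in 6 groups of 4, grouped by their titles. The authors deposited whole-number read counts per gene, not normalised, as judged from the values. The genome build is mm10, per the submitters' processing notes. The aligner, counter, annotation and strand setting were each not given in the sources used here, and reads of overlapping or antisense genes could have been counted together. Of 56750 entries 52073 (91.8%) could be paired with a symbol, and those without one hold 0.695% of reads.

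All 24 libraries entered 1 quasi-likelihood fit in edgeR 4.0.16 (R 4.3.3, TMM scaling, filterByExpr, robust), with Benjamini-Hochberg adjusted p under 0.05 over 20354 genes as the threshold. CPM is per TMM-scaled total. A prior count of 2 was added for log2 CPM. Intervals are 95%, from the SE with 18 residual degrees of freedom. Correlations have permutation tests with 100000 resamples. Positions and exon lengths are from GENCODE M21 (GRCm38), promoters from RefSeq GRCm38.p6. The procedures were tested on simulated data.

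The named genes were the 9 members, Drd1, Drd2, the 10 genes most like the members and the 5 least like them, and fixed markers of other tissues. A gene of this rule is not reported here. Some members of lists were picked out for their r after their values were seen. They were Ebf1, Strip2, Pdyn, Isl1, Meis2, Foxp1, Slc18a3, Lhx8, Neurod2, Camk2a, Pvalb and Gad2. Members and the 17 lists were chosen with earlier results of these data known. Alternatives were no filter, DESeq2 size factors, DESeq2 1.42.0, voom in limma 3.58.1, only the groups compared, a replicate block, and fits without named libraries. Replicate numbers of the titles did not pair the samples.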

Additional observations from a re-analysis of the deposited data

Results flagged for a closer look

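Of 66 sets of 4 values (the 9 members, Drd1 and Drd2 in 6 groups) that were checked for a library far from the other 3, 2 stood out, where chance gives about 1 in 20. Pde10a in GH_Con was 195 CPM in GH_Con 3, and the other 3 libraries lay between 271 and 283 CPM. That gap is 0.866 of the range of the group, above Dixon's critical value for 4 samples. Tac1 in GH_WT was 42.9 CPM in GH_WT 3, and the other 3 lay between 11.8 and 16.2 CPM, a gap of 0.857 of the range.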

How the results depend on the processing

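No member passed the threshold in any of 1719 tests of members under 32 alternative settings. The smallest adjusted p was 0.456 (Penk, isolation within the WT arm, without GH_WT 3), and 57 of these tests had an unadjusted p under 0.05. Members' group means in CPM changed by less than their SD with total counts as the scale. Some signs of fold changes turned. Isolation within the WT arm gave −0.08 for Pde10a and −0.01 for Syndig1l without SI_EE 1, GH_WT 2 and GH_WT 4. The members' median for EE in GH mice was −0.00048 with limma-voom and −0.05 with the replicate block. With limma-voom it was −0.07 for EE in isolated mice and −0.10 for EE by housing. Leaving out 1 library at a time gave −0.32 to 0.05 for Ppp1r1b (isolation without treatment), and −0.08 to 1.05 for Pde10a and −0.04 to 1.20 for Syndig1l (isolation within the WT arm). The medians then ran from −0.12 to 0.20 (EE in GH mice), −0.0094 to 0.52 (EE in isolated mice) and −0.11 to 0.44 (EE by housing). The cause of these turns was not tested. Same-numbered libraries had an r of −0.284 to 0.182 in their deviations over 60 pairs, with 4 over 0.1, so the replicate block shares only a number. It called 0 members, and 1 gene among the 6 groups where the fit without it called 10.

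Over all genes, edgeR called 0, 1, 0, 1, 0, 0, 0, 0, 0 and 10 genes in the 10 comparisons, in this order: isolation untreated, in EE and in the WT arm, EE in GH and in isolated mice, the WT arm in GH and in isolated mice, EE by housing, the WT arm by housing, and the 6 groups. DESeq2 called 33, 22, 12, 26, 174, 10, 2, 29, 0 and 215, and limma-voom 0 in each. At an unadjusted p under 0.05 edgeR had 1330, 1771, 1092, 1286, 2563, 696, 781, 1576, 921 and 1675. Without SI_EE 2, 91 genes passed for EE in isolated mice and 44 among the 6 groups. With 4 libraries a group and SEs of 0.34 to 0.68 between 2 groups, 2-fold differences of the members could be missed.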

Other observations

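Slc17a7, the vesicular glutamate transporter of cortical pyramidal neurons, had no values between 822 CPM (GH_Con 4) and 1180 CPM (GH_EE 4). Each group held libraries on both sides of that gap: in GH_Con it was 733, 1320, 1330 and 822 CPM and in SI_WT 796, 1300, 798 and 1340 CPM. Rgs9 in the same libraries of those 2 groups was 91.6, 104, 94.4 and 87.3 CPM and 109, 46.1, 105 and 64.3 CPM. No explanation was tested.

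Cd4, known as a coreceptor of helper T cells, was among the genes most like the striatal markers, with an r of 0.96 over 24 libraries and 0.94 without SI_EE 1 and GH_WT 1. Its level ran from 0.403 to 20.5 CPM. Clspn, known for its part in the checkpoint of DNA replication, had an r of 0.95 and 0.93 in the same libraries at 0.479 to 6.89 CPM.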
